A study of Mus musculus with 32 samples.

Results

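Imprinted genes other than those of the Igf2-H19 domain were followed through loss of CTCF, loss of cohesin, CTCF overexpression and a hairpin against Chd4 in mouse embryonic stem cells. The members are 34 imprinted genes taken by symbol, out of 17440 genes listed in at least 1 of 5 tables of normalised counts. From general knowledge, 22 are expressed from the paternal allele, 11 from the maternal allele, and Gnas gives products of both kinds. The tables listed 31 of the 34, and Airn, Nespas and Dcn were listed in none of them, each table holding between 26 and 30 members. The tables hold 1 value per gene, so no measurement here separates the parental alleles.

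Imprinted genes are transcribed mainly from the allele of 1 parent. Most lie in clusters steered by a control region that is methylated on a single parental allele, often the promoter of a non-coding RNA or of a paternally expressed gene. The zinc finger protein ZFP57 binds the methylated copy and keeps its methylation, and CTCF binds the unmethylated copy of some control regions, where it can insulate genes from enhancers. Embryonic stem cells keep most imprints, but serum-free medium with kinase inhibitors lowers DNA methylation and some imprints are lost in it.

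RNA sequencing was done on 32 libraries of the E14 embryonic stem cell line, in 16 groups of 2, and the labels do not say whether the libraries of a group came from separate cultures. The p-values below therefore measure the spread between these libraries, which may be technical. CTCF AID cells carry CTCF with an auxin-inducible degron, a tag that has the protein destroyed when auxin is added, and were given 500.0 uM indole-3-acetic acid (IAA) for 0, 12 or 24 h. RAD21 AID cells carry the tag on RAD21, a cohesin subunit, and were given 1 uM 5-Ph-IAA for the same times. CTCF AID cells labelled as grown in serum were compared at 0 and 12 h, although the growth protocol in their labels describes the serum-free medium with PD0325901, CHIR99021 and leukemia inhibitory factor for all libraries. The same CTCF AID genotype carried a control hairpin or a hairpin against Chd4, the helicase of the NuRD chromatin remodelling complex, and the labels of these 4 libraries name no auxin treatment. In the last table, CTCF AID cells overexpressed a control, wild-type CTCF or mutated CTCF, each with and without IAA. The labels do not say what the control construct was or which mutation CTCF carried. Every group given IAA or 5-Ph-IAA carried a degron tag. An effect of the compound or of time in culture therefore cannot be told apart from loss of the tagged protein. Titles and treatment labels conflict in 4 libraries: both with mutated CTCF and no IAA in the title carry a label of 12 h of treatment, and both with wild-type CTCF plus IAA in the title carry a label of no treatment. Groups follow the titles.

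The deposited values of a library summed to between 15364584 and 19642332. The Chd4 transcript was at 36.5% of its control level with the Chd4 hairpin, and the Ctcf transcript at 222% and 228% of control with wild-type and mutated CTCF. The degron acts on protein, so the Ctcf transcript (123% of its 0 h level at 12 h) and the Rad21 transcript (95.3%) do not report on the loss. All 9 naive stem cell markers were listed in every table. Markers of trophoblast, fibroblasts and primitive endoderm were listed in part, and the defining genes Elf5 and Tpbpa (trophoblast) and Lum, Fap and Prrx1 (fibroblasts) were listed in none of the 5 tables.

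Sequences just before the start of 3 genes that rose together with the Chd4 hairpin, and the interval that separates the divergent genes Peg3 and Usp29, are shown because these regions are known for methylation that differs between the parental alleles. They come from RefSeq on GRCm38.p6, each 5′ to 3′ on the strand of the gene (the strand of Peg3 for the interval). Capitals mark the ZFP57 hexamer TGCCGC or its reverse complement GCGGCA. The Mest stretch, at 1 of its RefSeq starts, is chr6:30737800-30738049 on the plus strand, that of Kcnq1ot1 chr7:143296548-143296797 on the minus strand, that of Meg3 chr12:109540746-109540995 on the plus strand, and the interval chr7:6730432-6730577.
Mest: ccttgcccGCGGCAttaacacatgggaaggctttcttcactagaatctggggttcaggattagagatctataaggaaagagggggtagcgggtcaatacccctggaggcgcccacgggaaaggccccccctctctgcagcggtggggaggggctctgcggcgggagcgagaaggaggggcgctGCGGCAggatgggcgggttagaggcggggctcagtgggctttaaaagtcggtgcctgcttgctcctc
Kcnq1ot1: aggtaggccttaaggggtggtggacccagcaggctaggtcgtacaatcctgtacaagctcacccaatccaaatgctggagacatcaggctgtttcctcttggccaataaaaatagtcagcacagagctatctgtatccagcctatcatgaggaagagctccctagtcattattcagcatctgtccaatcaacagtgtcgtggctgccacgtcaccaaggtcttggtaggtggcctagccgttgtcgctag
Meg3: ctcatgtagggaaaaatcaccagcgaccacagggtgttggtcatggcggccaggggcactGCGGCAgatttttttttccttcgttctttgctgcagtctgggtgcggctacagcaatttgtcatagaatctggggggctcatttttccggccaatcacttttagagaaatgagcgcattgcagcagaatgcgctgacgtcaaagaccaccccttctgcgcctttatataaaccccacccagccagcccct
Peg3-Usp29 interval: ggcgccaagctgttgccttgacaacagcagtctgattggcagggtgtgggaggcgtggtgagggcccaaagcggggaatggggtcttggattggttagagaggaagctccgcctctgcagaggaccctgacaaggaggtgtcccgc
The Mest stretch holds the hexamer at 2 places, the Meg3 stretch at 1, and the other 2 sequences at 0. RefSeq promoters were matched for 26 members, 41 promoters in all. Over 250.0 bases before the start, the hexamer was present on either strand in 7 of those 41 promoters, and in 8.68% of all 32851 promoters in the table. By gene, 6 of the 26 members had a match. The 7 promoters include overlapping windows of Mest that hold the same hexamers. The core of the CTCF motif, read as CCA, any 2 bases, AG, any 2 bases and GGC on either strand, was in 0 of the 41 and in 2.07% of all. A missing match says only that these letters are not in the window, and the motifs do not overlap each other. Only 146 bases part the annotated 5′ ends of Peg3 and Usp29, which are transcribed away from each other.

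Differences are given as log2(value + 1) of the first group minus the second, with the standard error from limma, and a gene is said to rise or fall where the Benjamini-Hochberg adjusted p over all genes tested in its table was under 0.05. Tests covered genes whose mean in a table was 10 or more. In GENCODE M21 on GRCm38, 13 of the 31 listed members have exons overlapped by a gene on the other strand. Whether reads were counted by strand is not given in the sources used here, so the values of these 13, Kcnq1ot1 (overlapped by Kcnq1), Mest (Copg2), Zrsr1 and Commd1 (each other), Meg3, Rtl1, Gnas, Usp29, Plagl1, Snrpn, Cdkn1c, Nnat and Zdbf2, may hold reads of their partners. The map of all differences shows how the members were called across the 19 comparisons.

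**Figure D1:**
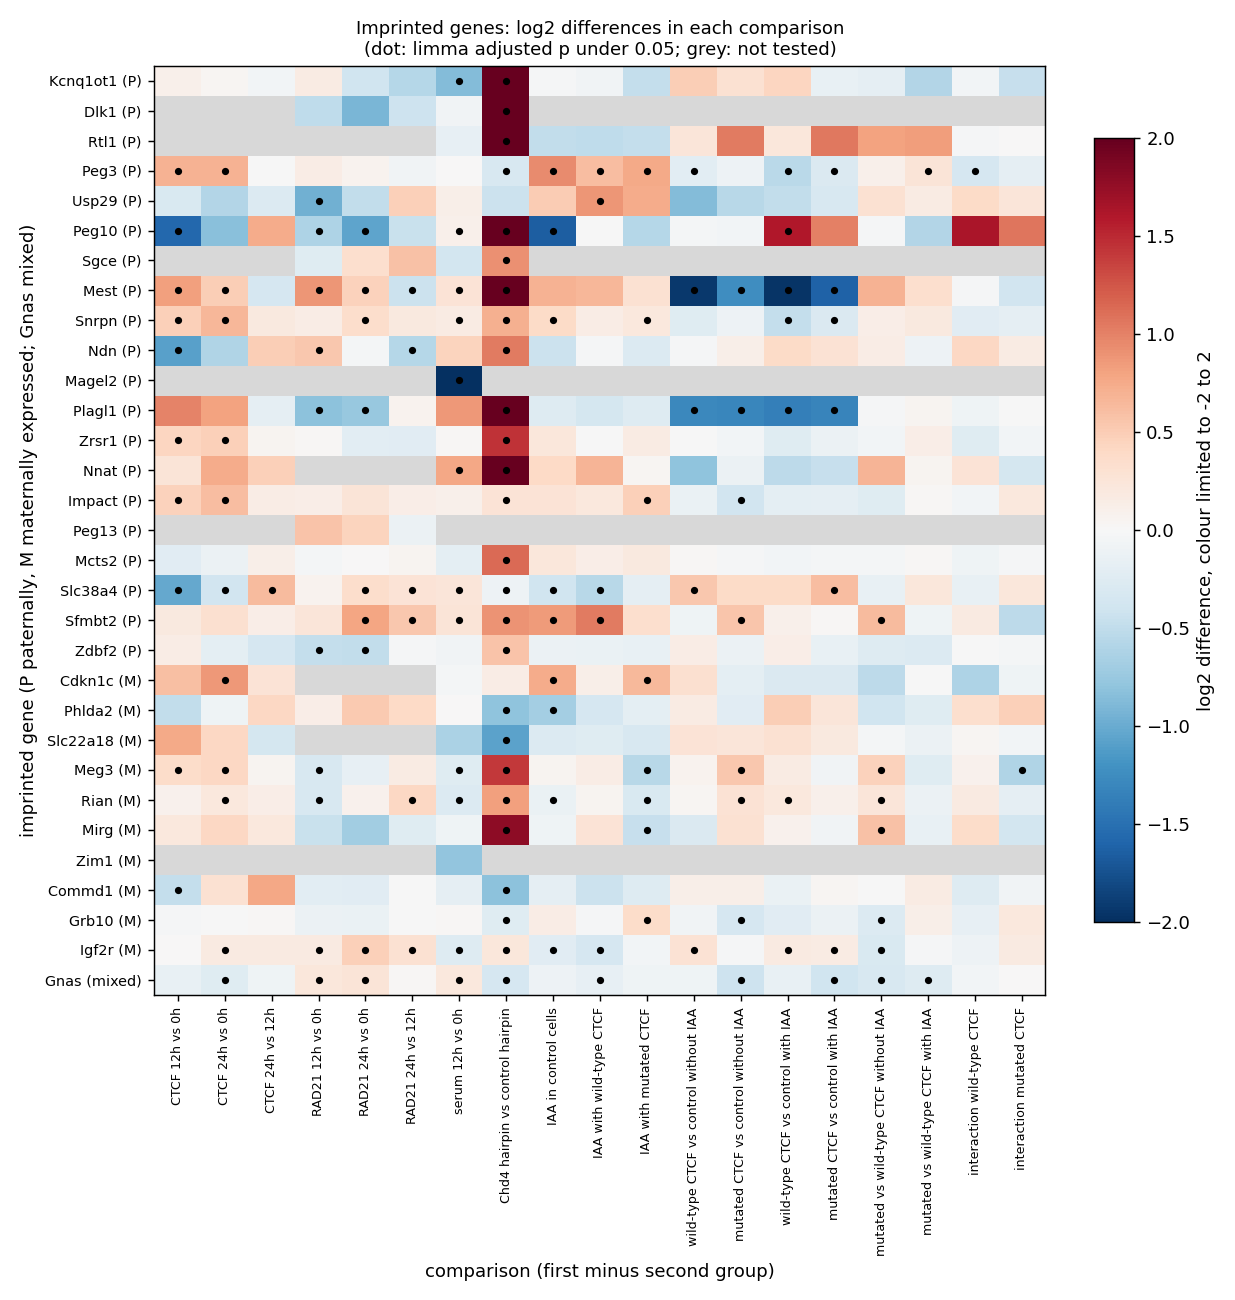
Log2 differences of 31 imprinted genes (rows, paternally expressed genes first, then maternally expressed genes and Gnas) in 19 comparisons (columns); colour is the log2 difference, limited to -2 to 2, dots mark an adjusted p under 0.05 and grey cells were not tested. The column of the Chd4 hairpin holds the deepest reds, with 19 members higher and 7 lower, and Peg3 is red in all 5 columns of IAA treatment in serum-free CTCF AID cells.

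After 12 h of CTCF loss in serum-free cells, 10 of the 25 members tested were called, with 6 higher and 4 lower. Of all genes tested, 17.8% were called (9.39% higher and 8.4% lower). The paternally expressed genes Peg3, Mest, Snrpn, Impact and Zrsr1 and the maternally expressed Meg3 rose. Slc38a4, Peg10 and Ndn, all paternally expressed, fell by at least 2-fold, as did 3.18% of all genes, and the maternally expressed Commd1 fell by less. The median member moved by 0.14 and the median gene by 0.00053 on the log2 scale. At 24 h, 11 of 25 were called, with 9 higher and 2 lower, where 22.5% of all genes tested were called (11.7% higher and 10.8% lower). The series asks, by its title, how CTCF acts on expression with and without loops, and these comparisons give the imprinted genes that differed after its loss.

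Slc38a4 on chromosome 15 encodes an amino acid transporter. Its values were 1157 and 1105 at 0 h, 561 and 552 at 12 h and 874 and 852 at 24 h. The 3 times did not overlap: the level was lowest at 12 h and in between at 24 h. It fell at 12 h (log2 difference -1.02, SE 0.068, adjusted p = 0.00023) and was still below 0 h at 24 h (log2 difference -0.39, SE 0.068, adjusted p = 0.00779), and it was the 1 member called between 12 and 24 h (log2 difference 0.63, SE 0.068, adjusted p = 0.0337), where 0.146% of all genes were called. The fall at 12 h held without each library in turn. The fall at 24 h was lost without replicate 1 of 0 h, and the rise from 12 to 24 h was lost without any 1 of its 4 libraries (0.61 to 0.65).

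Peg10, a retrotransposon-derived gene needed for the placenta, was low in these cells, with 48.3 and 52.1 at 0 h, 15.0 and 17.5 at 12 h and 39.9 and 19.01 at 24 h. Both 12 h libraries lay below both 0 h libraries (log2 difference -1.57, SE 0.39, adjusted p = 0.0347), and the 24 h libraries lay apart from each other. Ndn, which encodes the MAGE family protein necdin, went from 149.6 and 121 to 54.7 and 72.1 at 12 h (log2 difference -1.09, SE 0.22, adjusted p = 0.0151), with 89.98 and 87.3 at 24 h. Its 12 h values lay below all others. Leaving out any 1 of the 4 libraries ended the call of Peg10 (-1.47 to -1.68), and the call of Ndn ended without replicate 1 of either group (-0.89 to -1.28).

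Among the genes that rose, Mest, a hydrolase-fold gene of chromosome 6, had the largest difference at 12 h. It stood at 198 and 253 at 0 h, 379 and 412 at 12 h and 307 and 321 at 24 h, so that the 0 h libraries were the lowest (log2 difference 0.82, SE 0.14, adjusted p = 0.00919; 24 h 0.49, adjusted p = 0.0473). Without replicate 2 of 12 h the call at 12 h was lost (0.64 to 0.99), and the call at 24 h was lost without 3 of its 4 libraries. Peg3, a zinc finger gene of chromosome 7, went from 1062 and 1038 to 1699 and 1715 at 12 h and 1698 and 1703 at 24 h. The later times were nearly equal and lay clear of 0 h (log2 difference 0.70, SE 0.053, adjusted p = 0.000349; 24 h 0.69, adjusted p = 0.000263).

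Snrpn, a splicing ribonucleoprotein gene, stood at 713 and 699, then 991 and 969.8 and 1114 and 1125 at 12 and 24 h, and Impact, a regulator of the GCN2 kinase, at 3453 and 3803, 4959 and 5046 and 5593 and 5470.5. Neither gene's treated libraries overlapped its 0 h libraries, and the 24 h values were the highest. Snrpn changed by 0.47 (adjusted p = 0.00324) at 12 h and 0.66 (adjusted p = 0.000623) at 24 h, and Impact by 0.46 (adjusted p = 0.00177) and 0.61 (adjusted p = 0.000439). The calls of Peg3, Snrpn and Impact at both times held without each library in turn.

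Zrsr1 is a retrogene that lies within Commd1 on the other strand, and their annotated exons overlap. Zrsr1 rose by 0.43 and 0.48 at 12 and 24 h, and Commd1 fell by 0.47 at 12 h. At 12 h both calls were lost without any 1 of 4 libraries, and that of Zrsr1 at 24 h without 3 of 4. At 24 h Commd1 stood at 789 and 673, above its 0 h values of 617 and 563 without passing the test. Cdkn1c, a maternally expressed cell cycle inhibitor, had the largest rise at 24 h. It stood at 40.9 and 45.7 at 0 h, 70.6 and 61.3 at 12 h and 84.6 and 75.4 at 24 h, where both libraries lay above 0 h (log2 difference 0.87, SE 0.22, adjusted p = 0.0291), and the call was lost without any 1 library (0.79 to 0.95). The non-coding RNA Meg3 rose at both times (0.36 and 0.41), its neighbour Rian at 24 h (0.22) and the IGF2 scavenger receptor Igf2r at 24 h (0.19), while Gnas fell at 24 h (-0.24). The call of Meg3 was lost without 3 of 4 libraries at 12 h and 2 of 4 at 24 h. At 24 h those of Rian and Gnas were lost without 3 of 4, and that of Igf2r without any 1. Counts rested on few libraries: 5 or 6 members were called at 12 h without any 1 library, and at 24 h 4 without replicate 1 of 0 h, 5 without replicate 2 of 0 h, 7 without replicate 1 of 24 h and 8 without replicate 2 of 24 h.

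Plagl1, a zinc finger gene, had libraries that lay far apart. It stood at 449.7 and 374 at 0 h, 982 and 676 at 12 h and 427 and 1211 at 24 h, a difference of 0.99 at 12 h with a standard error of 0.43 (adjusted p = 0.169). The 12 h libraries lay above both 0 h libraries, but 1 of the 24 h libraries lay among the 0 h values. The members that did not pass at either time were Kcnq1ot1, Phlda2, Slc22a18, Mirg, Usp29, Plagl1, Grb10, Nnat, Mcts2, Sfmbt2 and Zdbf2. Dlk1 was listed at under 10 on average and not tested. Over the same times the summed level of the 4 listed fibroblast markers went from 254 to 262 at 0 h to 111 to 122 at 12 h, with 1 of 3 tested lower, Pdgfrb, which fell from 212 to 76.1 (log2 difference -1.47, SE 0.19, adjusted p = 0.00283). That of the 6 listed trophoblast markers went from 1718 to 1762 to 1328 to 1380, with 2 of 5 tested lower and 0 higher. Col1a2, Col3a1, Elf5, Gata3, Hand1 and Tpbpa were not listed in that table, nor were Lum, Postn, Fap and Prrx1. The 5 listed primitive endoderm markers summed to 1791 to 1935 at 0 h and 2909 to 3276 at 24 h, with 1 of 4 tested higher and 1 lower. The part of these markers in the members' values was not tested.

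**Figure D2:**
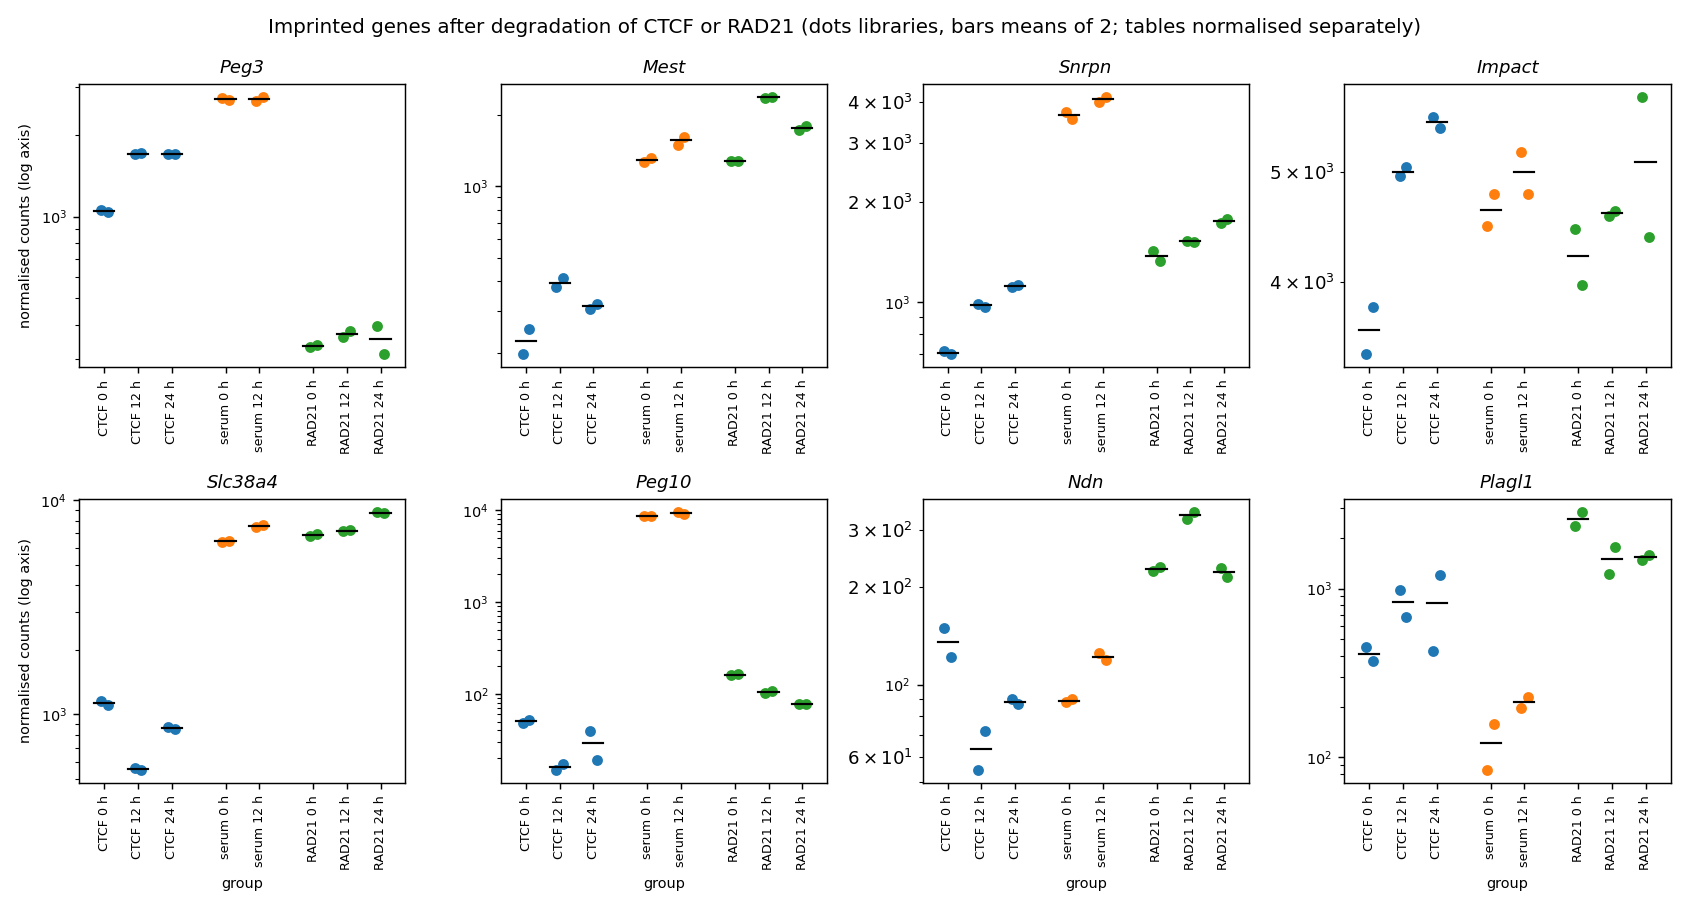
Normalised counts (log axis) of 8 imprinted genes by group; dots are libraries and bars means of 2, in CTCF AID cells (blue), CTCF AID cells in serum (orange) and RAD21 AID cells (green). Slc38a4 dips at 12 h of CTCF loss and Peg3 stays above its 0 h values, while Peg3 in serum holds between 2672 and 2770; levels across colours come from tables normalised separately.

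In serum, 12 of 30 members were called after 12 h of CTCF loss, with 7 higher and 5 lower. Of all genes tested, 17% were called (7.73% higher and 9.25% lower). The paternally expressed genes Nnat, Mest, Sfmbt2, Slc38a4, Snrpn and Peg10 and the complex locus Gnas rose, and Magel2, Kcnq1ot1, Rian, Igf2r and Meg3 fell. The median member moved by -0.015 and the median gene by -0.00022. All 3 maternally expressed genes that were called fell (Meg3, Rian and Igf2r), and their largest difference was -0.28. The calls of Meg3 and Igf2r were lost without either 12 h library, and that of Rian held without each library in turn. Among the rises, those of Mest, Snrpn and Peg10 were lost without 3 of 4 libraries each. The rise of Gnas was lost without either 12 h library and that of Sfmbt2 without replicate 1 of 12 h, while that of Slc38a4 held.

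Magel2, a MAGE family gene next to Ndn, was listed in the serum table alone. It went from 46.7 and 32.9 at 0 h to 3.03 and 8.80 at 12 h (log2 difference -2.68, SE 0.49, adjusted p = 0.0117), and the groups did not overlap. Its call was lost without replicate 1 of 12 h, with a difference over the 4 refits of -2.04 to -3.32. Ndn, the next member on the same strand, stood at 88.2 and 90.1 and 125 and 119 in serum (0.45, adjusted p = 0.0809), above its 0 h values without passing the test.

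Kcnq1ot1, the non-coding RNA that silences its domain on the paternal chromosome, fell from 259 and 270.4 to 140.2 and 148 (log2 difference -0.87, SE 0.11, adjusted p = 0.00258). Nnat, a small membrane protein gene of chromosome 2, rose from 391 and 401 to 695 and 662 (log2 difference 0.78, SE 0.073, adjusted p = 0.000633). Neither pair of groups overlapped, and both calls held without each library in turn. The maternally expressed genes of the Kcnq1ot1 domain did not pass the test: Cdkn1c stood at 688 and 652 and 702 and 606, Phlda2 at 628 and 582 and 589.5 and 627, and Slc22a18 at 19.7 and 12.2 and 10.6 and 8.87. Cdkn1c and Phlda2 overlapped between the groups.

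Peg3, which rose in the serum-free cells, stood in serum at 2730.5 and 2680.1 without and 2672 and 2769.6 with IAA (0.0081, adjusted p = 0.902), and its groups overlapped. Slc38a4, which fell in the serum-free cells, rose in serum from 6405 and 6433 to 7505 and 7645 (0.24, adjusted p = 0.000785). The serum libraries form a table of their own, and the difference between culture conditions was not tested. Without replicate 1 or replicate 2 of 12 h in serum, 4 and 6 members were called. Not called in serum were Cdkn1c, Phlda2, Slc22a18, Mirg, Dlk1, Rtl1, Peg3, Usp29, Zim1, Sgce, Ndn, Plagl1, Zrsr1, Commd1, Grb10, Impact, Mcts2 and Zdbf2. The summed naive markers went from 68696 to 68961 at 0 h to 57949 to 58954 at 12 h, with 7 of 9 lower, and their part in the members' values was not tested.

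After loss of RAD21, 10 of 25 members were called at 12 h (4 higher, 6 lower, against 13% of all genes, 6.66% higher and 6.35% lower). At 24 h, 9 of 25 were called (6 higher, 3 lower, against 13.7% of all genes, 6.54% higher and 7.16% lower). Between 12 and 24 h, 6 members were called (4 higher, 2 lower, against 15.9% of all genes, 7.67% higher and 8.26% lower). Mest, Igf2r and Gnas were higher at both times and Peg10, Plagl1 and Zdbf2 lower at both. At 12 h the calls of Igf2r and Gnas were lost without any 1 library, and that of Zdbf2 without 3 of 4. The median member moved by 0.028 at 12 h and 0.0075 at 24 h.

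Mest had the largest rise at 12 h. It went from 1282 and 1284 at 0 h to 2340.0 and 2385 at 12 h and 1719 and 1801 at 24 h (log2 difference 0.88, SE 0.049, adjusted p = 0.000291; 24 h 0.46, adjusted p = 0.00225). Every treated library lay above both 0 h libraries, and the 24 h level lay below that of 12 h (-0.42, adjusted p = 0.00266). All 3 of these calls held without each library in turn.

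Peg10 declined stepwise, from 159.8 and 165 to 103 and 108 and then 78.0 and 76.8. The 3 times did not overlap (log2 difference -0.62, SE 0.15, adjusted p = 0.0443; 24 h log2 difference -1.06, SE 0.15, adjusted p = 0.00741). The call at 24 h held without each library in turn, and that at 12 h was lost without any 1 of its libraries (-0.59 to -0.65). Usp29, a deubiquitinase gene that starts beside Peg3, had the largest fall at 12 h, from 100.01 and 91.5 to 44.8 and 52.6 (log2 difference -0.96, SE 0.25, adjusted p = 0.0481), and this call too was lost without any 1 library (-0.85 to -1.08). At 24 h Usp29 stood at 82.0 and 55.9 and did not pass. Peg3 itself stood at 331 and 337, 362 and 378 and 395 and 312 over the 3 times, with 1 of the 24 h libraries below 0 h (0.15, adjusted p = 0.49 at 12 h).

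Sfmbt2, a Polycomb-group gene, had the largest rise at 24 h, from 412 and 363 at 0 h and 432 and 487 at 12 h to 713 and 625 at 24 h (log2 difference 0.79, SE 0.12, adjusted p = 0.00749). Both 24 h libraries lay above all earlier ones. Plagl1 fell from 2363 and 2842 to 1223 and 1757 and 1477 and 1589 (-0.82, adjusted p = 0.0235; 24 h -0.76, adjusted p = 0.0283), with calls that were lost without 3 of 4 libraries at 12 h and without any 1 at 24 h. Zdbf2, Snrpn, Slc38a4, Igf2r and Gnas differed at 24 h by -0.49, 0.35, 0.35, 0.48 and 0.25. The call of Zdbf2 was lost without replicate 1 of 0 h, and those of Snrpn and Gnas without replicate 2 of either group.

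Some members moved for a time. Ndn stood at 224 and 230.5, rose to 324 and 339 and was back at 229 and 215 (0.54 from 0 to 12 h and -0.58 from 12 to 24 h), although both calls were lost without any 1 library. Rian fell from 4566 and 4663 to 3539 and 3826 and then stood at 5036 and 4770.4, above 0 h (-0.33 and 0.41), and Meg3 fell at 12 h (-0.33). The call of Meg3 was lost without any 1 library, and the fall of Rian without replicate 2 of 0 h. Only 1 to 4 members were called at 12 h when 1 library was left out, against 6 to 8 at 24 h. Not called in any of the 3 comparisons were Kcnq1ot1, Phlda2, Mirg, Dlk1, Peg3, Sgce, Zrsr1, Commd1, Grb10, Impact, Peg13 and Mcts2, and Nnat was too low to test. The 7 listed primitive endoderm markers summed to between 2003 and 2120.1 at 0 h and between 3005 and 3095 at 24 h, with 1 of 7 higher, and Sox7 and Foxa2 were not listed. That 1 was Lama1, from 1917 to 2858. Of 9 naive markers, 5 were lower and 1 higher at 12 h, and 3 lower and 1 higher at 24 h. The 5 listed trophoblast markers summed to 1440 to 1530 at 0 h and 1173 to 1212 at 24 h, with 1 higher and 2 lower. Cdx2, Elf5, Gata3, Hand1 and Tpbpa were not listed. Of 4 fibroblast markers tested, 1 was higher at 24 h. The part of these markers was not tested.

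With the Chd4 hairpin, 26 of 28 members tested differed from the control hairpin, 19 higher and 7 lower, in a comparison where 67.4% of all genes tested were called (33.5% higher and 33.8% lower). A change of at least 2-fold was called for 13 members, 12 of them higher. By that rule 28.8% of all genes were called, and 17.5% were called higher. Of the 18 paternally expressed members tested, 15 rose and 2 fell, with a median of 1.08. Of the 9 maternally expressed members, 4 rose and 4 fell, with a median of 0.15. The median of all genes was 0.0062.

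Mest moved furthest. Its control hairpin libraries had 42.0 and 32.3 and its Chd4 hairpin libraries 3739.9 and 3562, 96.6-fold between the fitted means (log2 difference 6.59, SE 0.14, adjusted p = 1.32e-06). Copg2, which runs into Mest on the other strand and was picked after its values were seen, went from 2154 and 2235 to 1875 and 2292 and did not pass the test. Kcnq1ot1 went from 75.0 and 72.0 to 1509 and 1367 (log2 difference 4.27, SE 0.11, adjusted p = 1.41e-06). Peg10 went from 273 and 202 to 3279 and 3170.2 (log2 difference 3.77, SE 0.14, adjusted p = 3.54e-06). For each of these 3 genes the lowest library with the Chd4 hairpin was more than 10-fold above the highest control library.

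In the Dlk1-Meg3 domain of chromosome 12, all 5 members rose, genes of both parental origins among them. The maternally expressed non-coding RNA Meg3 went from 3817 and 4169 to 10473 and 10812 (log2 difference 1.42, SE 0.054, adjusted p = 4.27e-06), the snoRNA host Rian from 11581 and 11193 to 20017 and 20104 (0.82, adjusted p = 7.83e-06), and the microRNA host Mirg from 246 and 250.5 to 881 and 845 (log2 difference 1.79, SE 0.084, adjusted p = 7.83e-06). These 3 genes are transcribed in 1 direction in a row. The paternally expressed Dlk1, a Delta-like membrane protein gene, went from 2.18 and 1.58 to 38.4 and 24.8 (log2 difference 3.48, SE 0.45, adjusted p = 0.000493), and Rtl1, which is needed for placental capillaries, from 14.6 and 14.2 to 61.6 and 70.8 (log2 difference 2.13, SE 0.27, adjusted p = 0.000461). Dlk1 was at under 3 in both control libraries, so its difference depends on the pseudocount of 1. The exons of Rtl1 are overlapped on the other strand by microRNA genes such as Mir127 and Mir136. Its values may hold reads of that strand, where Meg3, Rian and Mirg also lie.

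In the Kcnq1ot1 domain, the non-coding RNA rose as given above, while 2 of its 3 maternally expressed protein genes fell. The transporter gene Slc22a18 went from 118 and 109 to 43.6 and 65.2 (log2 difference -1.08, SE 0.24, adjusted p = 0.00666), a call lost without replicate 1 of the Chd4 hairpin (-0.79 to -1.36), and Phlda2, which limits placental growth, from 185 and 150.2 to 111 and 80.8 (-0.81, adjusted p = 0.0126), lost without replicate 2. Cdkn1c stood at 189 and 138 and 174 and 186, with overlapping groups (0.15, adjusted p = 0.476).

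Retrogenes that lie within other genes also rose. The exons of Zrsr1 and its host Commd1 overlap, so the values of each may hold reads of the other. Zrsr1 went from 349 and 270.2 to 771 and 918 (log2 difference 1.45, SE 0.14, adjusted p = 0.000157) while its host Commd1 fell from 816 and 812 to 423 and 504 (-0.82, adjusted p = 0.000402), the opposite order in every library. Mcts2 went from 244 and 248 to 493 and 587 (log2 difference 1.13, SE 0.11, adjusted p = 0.000168), and its host H13 from 272 and 229 to 543 and 586, higher as well. Peg13, a non-coding RNA inside Trappc9, was listed at 0 in both control libraries and at 12.0 and 14.0 with the Chd4 hairpin, below the mean needed for a test, while Trappc9 went from 626 and 599 to 281 and 309.7, lower. The 2 host genes H13 and Trappc9 were picked after their values were seen.

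Other paternally expressed genes that rose by at least 2-fold were Nnat, Plagl1 and Ndn. Nnat went from 24.5 and 38.5 to 184 and 193 (log2 difference 2.58, SE 0.25, adjusted p = 0.000146). Plagl1 went from 120.1 and 94.4 to 665 and 453 (log2 difference 2.35, SE 0.21, adjusted p = 9.36e-05), and Ndn from 101 and 114 to 229.9 and 212 (log2 difference 1.03, SE 0.15, adjusted p = 0.000822). In none of the 3 did the hairpin groups overlap. Sgce (epsilon-sarcoglycan, which shares a bidirectional start with Peg10), Sfmbt2, Snrpn, Zdbf2 and Impact rose by 0.91, 0.89, 0.72, 0.57 and 0.27, the calls of Sgce and Impact being lost without 3 of 4 libraries each.

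In the Peg3 domain, Peg3 fell from 1914 and 1779 to 1520.1 and 1442 (log2 difference -0.32, SE 0.063, adjusted p = 0.00374), a call lost without replicate 2 of the Chd4 hairpin (-0.26 to -0.37), and Usp29 stood at 161 and 145 and 126 and 103 (-0.42, adjusted p = 0.0634). The maternally expressed Zim1, a zinc finger gene of the same domain, was under 10 on average and not tested. Slc38a4 was the other paternally expressed member that was lower, with 7846 and 7967 and 7338 and 7378 (-0.10, adjusted p = 0.0497). That call was lost without any 1 library, and quantile normalisation turned its sign (0.056) without passing the test. The growth factor receptor adaptor Grb10 and Gnas fell by 0.25 and 0.34, and Igf2r rose by 0.23. The call of Grb10 was lost without 2 of 4 libraries, and those of Gnas and Igf2r held without each library in turn.

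The 6 listed trophoblast markers summed to 2251 to 2345 with the control hairpin and 4263 to 4388 with the Chd4 hairpin, with 5 of 6 higher and 1 lower, and Cdx2, Elf5, Hand1 and Tpbpa were not listed. The 6 listed fibroblast markers went from 331 to 406 to 697 to 777, with 4 of 5 tested higher, and Col3a1, Lum, Fap and Prrx1 were not listed. Of 9 naive stem cell markers 6 were lower and 1 higher, and their sum went from 125201 to 127176 to 79916 to 81353. The 8 listed primitive endoderm markers summed to 1945 to 2057 and 1967 to 2072, but 4 were higher and 3 lower. Among them Dab2 rose from 1.78 to 616 (log2 difference 7.79, SE 0.24, adjusted p = 2.46e-06) and Gata4 fell from 41.5 to 8.63 (log2 difference -2.14, SE 0.31, adjusted p = 0.000912), and Foxa2 was not listed. In a bulk sample, more cells of a type and more RNA per cell cannot be told apart. The part of these markers in the members' rise was not tested.

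**Figure D3:**
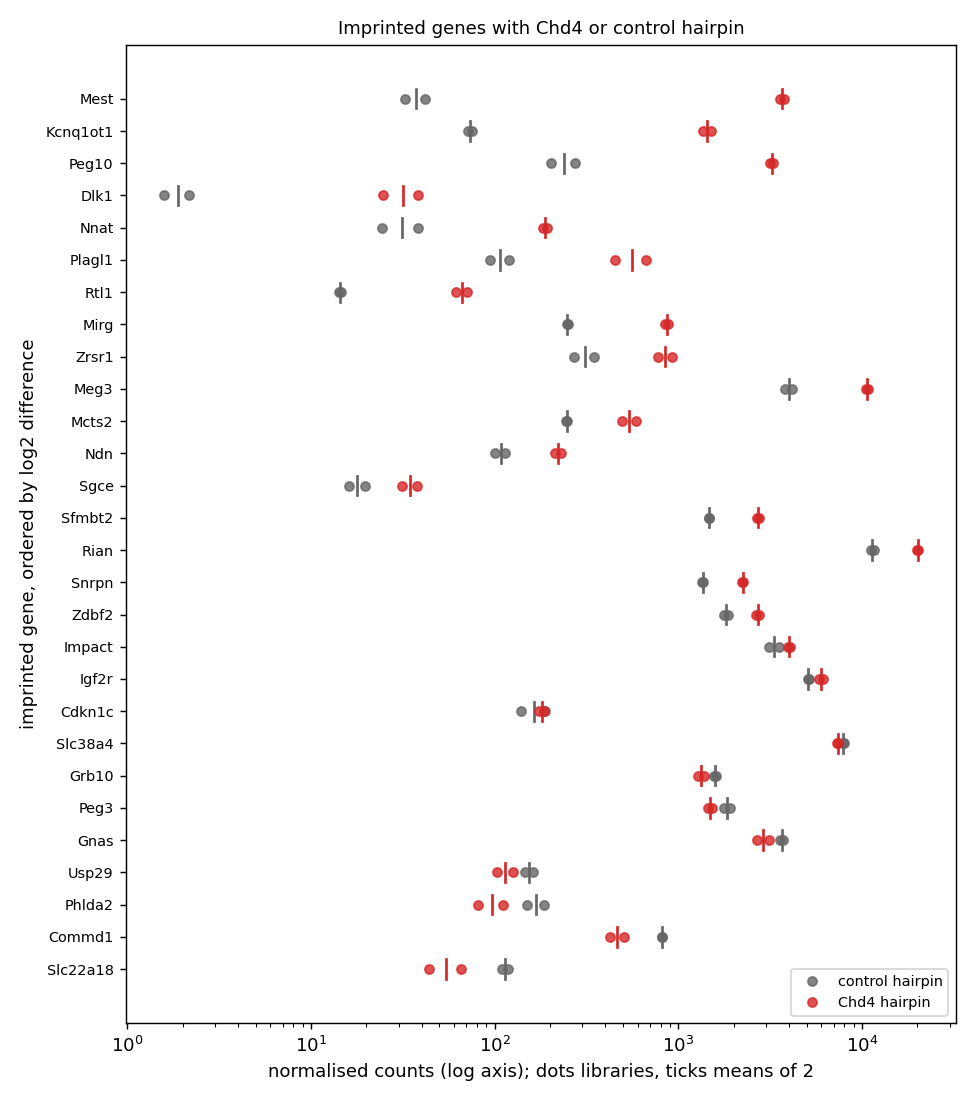
Normalised counts (log axis) of the 28 imprinted genes tested with the control hairpin (grey) or the Chd4 hairpin (red), ordered by log2 difference; dots are libraries and ticks means of 2. Mest, Kcnq1ot1 and Peg10 at the top are separated by more than 10-fold, and Slc22a18, Commd1 and Phlda2 at the bottom lie to the left of their controls.

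In the overexpression table, 9 of 26 members were called after 12 h of IAA in cells with the control construct (4 higher, 5 lower). Of all genes tested, 25.3% were called (12.8% higher and 12.5% lower). With wild-type CTCF 6 were called (3 higher, 3 lower, against 21.4% of all genes, 11.1% higher and 10.3% lower) and with mutated CTCF 8 (5 higher, 3 lower, against 16.2% of all genes, 8.31% higher and 7.92% lower). Peg3 rose in all 3 backgrounds. Mutated CTCF libraries titled as without IAA, and wild-type CTCF libraries titled as with IAA, are those whose treatment labels say otherwise, so the comparisons that use them rest on the titles. Under the control construct, the summed naive markers went from 127586 to 128833 without IAA to 122072 to 122449 with IAA, with 1 of 9 higher and 4 lower. The 6 listed trophoblast markers went from 1631 to 1727 to 1953 to 2022, with 1 higher and 1 lower, and Elf5, Gata3, Hand1 and Tpbpa were not listed. The part of these markers in the members' values was not tested.

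Peg3 stood at 1249.9 and 1263 without IAA and 2389 and 2449 with IAA under the control construct, at 1086 and 1079.6 and 1664 and 1654 under wild-type CTCF, and at 1194 and 1141 and 1981 and 1982 under mutated CTCF. In each background both IAA libraries lay above both others. The differences were 0.94 (adjusted p = 1.55e-07), 0.62 (adjusted p = 9.79e-06) and 0.76 (adjusted p = 2.59e-06), and all held without each library in turn. Already without IAA, Peg3 was called lower with wild-type CTCF than with the control (-0.21), a call lost without any 1 library. With IAA, Peg3 was lower with wild-type CTCF than with the control (-0.54, adjusted p = 2.96e-05) and lower with mutated CTCF than with the control (-0.29, adjusted p = 0.00243), and mutated lay above wild-type CTCF (0.26, adjusted p = 0.0142, lost without any 1 library). The response to IAA was itself smaller with wild-type CTCF than with the control (log2 difference -0.33, SE 0.061, adjusted p = 0.025), and Peg3 was the 1 member called for it, where 1.41% of all genes were called. This interaction was lost without any 1 of its 8 libraries (-0.31 to -0.35), and that with mutated CTCF was -0.18 (adjusted p = 0.234).

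Peg10 fell with IAA under the control construct, from 54.5 and 52.2 to 13.9 and 19.1 (log2 difference -1.65, SE 0.27, adjusted p = 0.00119), which held without each library in turn. Under wild-type CTCF it stood at 45.2 and 59.5 and 43.1 and 61.1, with overlapping groups, and under mutated CTCF at 47.2 and 55.2 and 33.6 and 34.2. With IAA, wild-type CTCF cells lay above control cells (log2 difference 1.59, SE 0.27, adjusted p = 0.00541), a call lost without replicate 2 of wild-type CTCF with IAA (1.35 to 1.84). The interaction itself did not pass the test (wild type 1.63, adjusted p = 0.0715, mutated 1.07, adjusted p = 0.264).

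Sfmbt2 rose with IAA under the control construct, from 455 and 534 to 773 and 1034 (0.86, adjusted p = 0.00132), and under wild-type CTCF, from 468 and 465 to 855 and 1078 (1.04, adjusted p = 0.000565). Under mutated CTCF it was at 700.0 and 746 without and 949 and 869.6 with IAA (0.33, adjusted p = 0.148). The libraries titled as mutated CTCF without IAA, which carry a label of 12 h of treatment, were above the other untreated ones, by 0.55 (adjusted p = 0.0492) against the control, a call lost without any 1 of 4 libraries. Slc38a4 fell with IAA under the control, from 424 and 475 to 319 and 362 (-0.40, adjusted p = 0.0187), and under wild-type CTCF, from 645 and 659 to 446 and 441 (-0.56, adjusted p = 0.00424), and stood at 529 and 654 and 522 and 517 under mutated CTCF. The fall under the control was lost without replicate 2 of the untreated or replicate 1 of the treated control.

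Igf2r fell with IAA under the control and under wild-type CTCF by 0.23 and 0.34, Snrpn rose under the control and mutated CTCF by 0.39 and 0.21, and Cdkn1c rose under the same pair by 0.74 and 0.64. Usp29, beside Peg3, rose under wild-type CTCF from 38.7 and 59.4 to 83.9 and 95.9 (0.89, adjusted p = 0.0406), a call lost without 3 of 4 libraries. Rian fell under the control and mutated CTCF by 0.13 and 0.31. Phlda2 fell under the control, Gnas under wild-type CTCF and Meg3 and Mirg under mutated CTCF, where Grb10 and Impact rose. The calls of Gnas under wild-type CTCF and of Snrpn and Mirg under mutated CTCF were lost without any 1 library. Cdkn1c was lost without 2 of 4 libraries under the control and 3 of 4 under mutated CTCF. Rian and Phlda2 under the control were lost without 3 of 4, and Impact without 1. The calls of Igf2r, Grb10 and Meg3 held without each library in turn. In none of the 9 comparisons of single conditions in this table were Kcnq1ot1, Slc22a18, Rtl1, Ndn, Zrsr1, Commd1, Nnat, Mcts2 or Zdbf2 called. Members called in some backgrounds only are not thereby shown to differ between backgrounds.

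Overexpression without IAA gave 5 called members with wild-type CTCF (2 higher, 3 lower), where 0.897% of all genes tested were called (0.502% higher and 0.395% lower), and 8 with mutated CTCF (3 higher, 5 lower, against 5.55% of all genes, 3.31% higher and 2.24% lower). With IAA, 7 were called with wild-type CTCF (3 higher, 4 lower, against 6.26% of all genes, 3.98% higher and 2.27% lower) and 7 with mutated CTCF (2 higher, 5 lower, against 6.5% of all genes, 4.16% higher and 2.34% lower). The pairs share the control libraries within a treatment. Mest and Plagl1 were lower in all 4 of these comparisons. Slc38a4, with the values above, had the largest rise with wild-type CTCF without IAA (0.54, adjusted p = 0.0476, lost without any 1 library) and with mutated CTCF with IAA (0.61, adjusted p = 0.00663, lost without replicate 1 of the treated control).

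Mest stood at 145 and 144 with the control, 26.1 and 52.3 with wild-type CTCF and 51.0 and 71.8 with mutated CTCF, all without IAA. With IAA the values were 207 and 264, 56.2 and 62.9 and 77.5 and 73.3. No library of either CTCF construct reached the lowest control library. Against the control, Mest differed by -1.94 (adjusted p = 0.0127) with wild-type and -1.24 (adjusted p = 0.0334) with mutated CTCF, and with IAA by -1.96 (adjusted p = 0.00231) and -1.62 (adjusted p = 0.00755). The call with wild-type CTCF and IAA held without each library in turn. Without IAA the calls were lost without either control library (wild type, -1.45 to -2.42) or without any 1 library (mutated, -0.999 to -1.49), and with mutated CTCF and IAA without replicate 2 of either group (-1.45 to -1.79).

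Plagl1 was at 1101 and 1076 with the control, 516 and 385 with wild-type CTCF and 485 and 397 with mutated CTCF, and with IAA at 886 and 933, 377 and 327 and 411 and 325. The control libraries were the highest under both treatments. The differences from the control were -1.29 (adjusted p = 0.00379) and -1.31 (adjusted p = 0.001) without IAA and -1.37 (adjusted p = 0.000365) and -1.31 (adjusted p = 0.000505) with IAA, and all 4 calls held without each library in turn. IAA itself gave no called change of Plagl1 in any background (control -0.26, adjusted p = 0.249).

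Meg3 stood out with mutated CTCF. It was at 4894 and 4546 without IAA, against 3413 and 3112 with the control and 3537 and 3319.5 with wild-type CTCF, and at 3258 and 3167 with IAA, against 3300.2 and 3464 and 3732 and 3829. The libraries titled as mutated CTCF without IAA were above all others. Meg3 was thus higher than the control (log2 difference 0.53, SE 0.054, adjusted p = 0.000367) and than wild-type CTCF (0.46, adjusted p = 0.001), and fell with IAA (-0.55, adjusted p = 0.000103). The response to IAA differed from that with the control (log2 difference -0.61, SE 0.077, adjusted p = 0.00167). Meg3 was the 1 member called for it, where 1.64% of all genes were called, and this held without each of 8 libraries in turn. Its neighbours Rian and Mirg were likewise higher with mutated than with wild-type CTCF (0.25 and 0.59), and 1 library decided those calls: Rian's was lost without replicate 1 of mutated CTCF and Mirg's without either of its replicates. These libraries are the ones labelled as treated, so by treatment label the interaction and the comparison of mutated with wild-type CTCF without IAA cannot be formed.

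Mutated and wild-type CTCF differed without IAA in 7 members (4 higher, 3 lower, against 6.23% of all genes, 3.49% higher and 2.73% lower). Sfmbt2 had the largest difference, with the values given above (0.63, adjusted p = 0.026, lost without any 1 library), and Gnas, Igf2r and Grb10 were lower with mutated CTCF by 0.32, 0.31 and 0.27. The call of Grb10 was also lost without any 1 library. Gnas, the stimulatory G protein locus, was at 2755 and 2806, 2639 and 2593 and 2108 and 2070.2 without IAA and 2626 and 2580.4, 2340.3 and 2352 and 1874 and 2075 with IAA, in the order control, wild type and mutated. Its mutated CTCF libraries were the lowest under both treatments. With IAA, 2 members differed between the constructs, Peg3 (higher) and Gnas (lower, -0.25, adjusted p = 0.0241), where 2.25% of all genes tested were called (1.08% higher and 1.18% lower). The count without IAA was 3 without replicate 1 and 4 without replicate 2 of mutated CTCF.

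**Figure D4:**
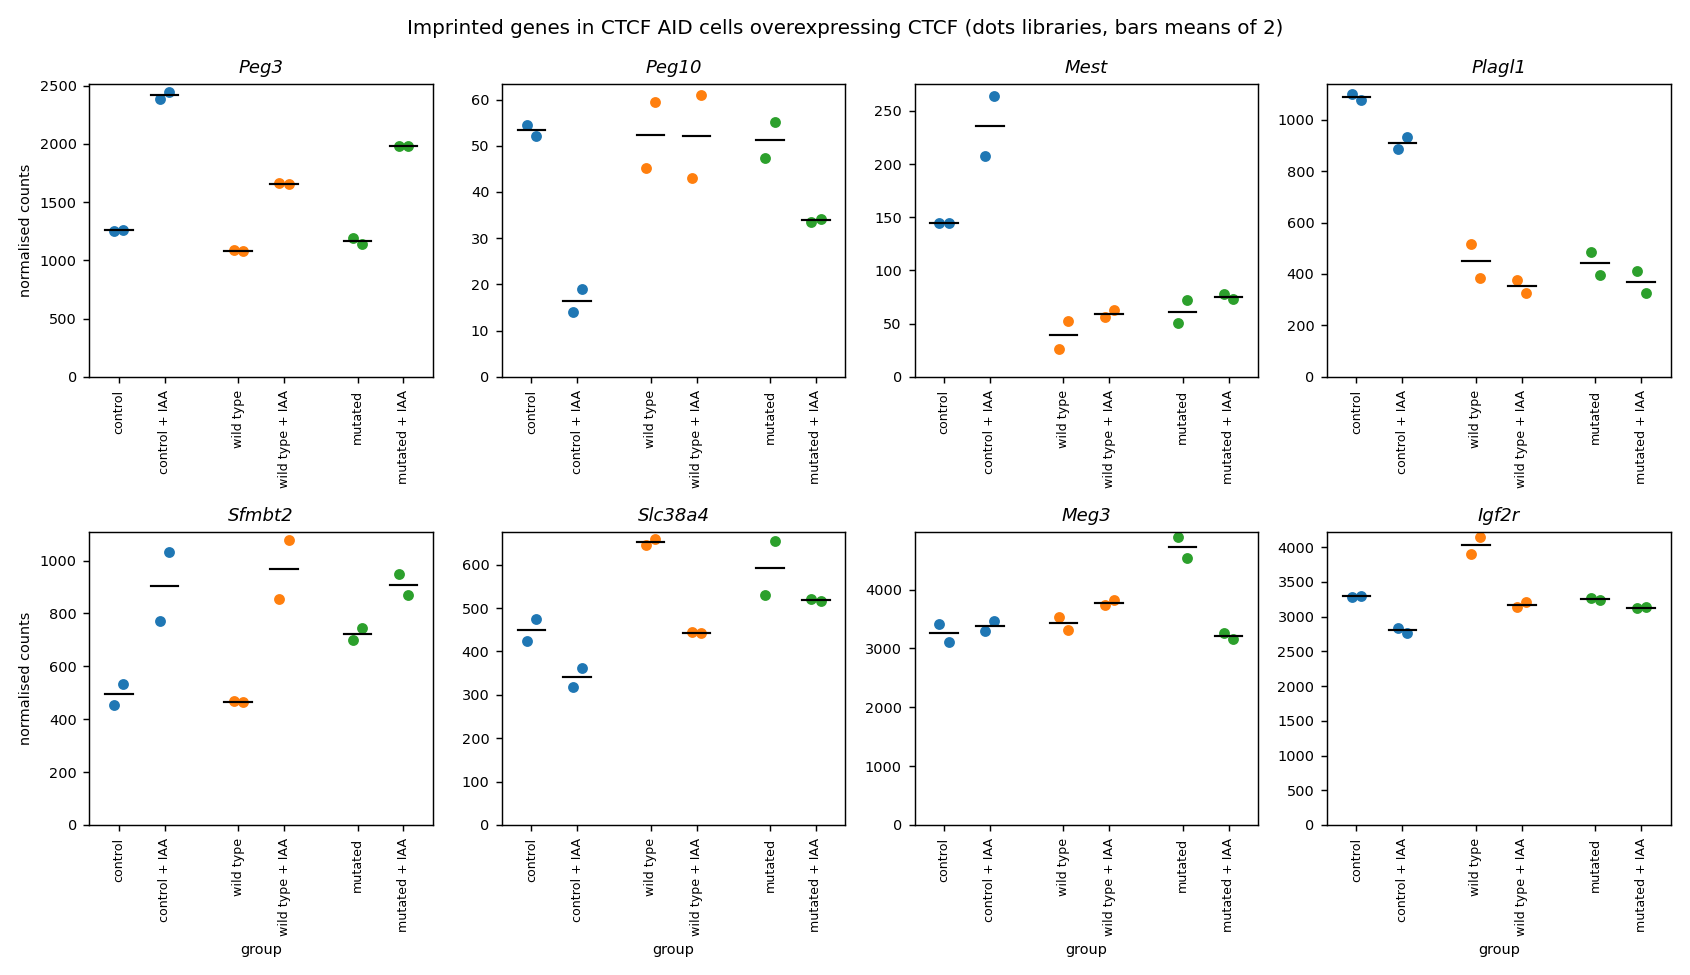
Normalised counts of 8 imprinted genes in CTCF AID cells with the control construct (blue), wild-type CTCF (orange) or mutated CTCF (green), each without and with IAA as titled; dots are libraries and bars means of 2, and the axes start at 0. Peg3 is higher with IAA in each background, Mest and Plagl1 are lower with either CTCF construct, and Meg3 is highest in mutated CTCF without IAA.

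Across the 19 comparisons Igf2r was called in 12, Peg3, Mest and Slc38a4 in 11 each, and Rian and Gnas in 10. Sfmbt2 was called higher in 8 comparisons and lower in 0. Slc22a18, Dlk1, Rtl1, Sgce and Mcts2 were called with the Chd4 hairpin alone, and Zim1 and Peg13 in no comparison, being tested in 1 and 3. Comparisons that share control libraries are not independent of each other, so these counts are a description.

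The proteins that maintain or erase imprints were read from a list of 22 genes, all tested in every table. At 12 h of CTCF loss 9 rose and 2 fell, where 17.8% of all genes were called, and with the Chd4 hairpin 9 rose and 10 fell, where 67.4% were. Dppa3, which protects methylated DNA in the early embryo, had the largest rise after CTCF loss, from 153 to 425 (log2 difference 1.47, SE 0.10, adjusted p = 0.000218) at 12 h and from 153 to 777 (log2 difference 2.34, SE 0.10, adjusted p = 4.3e-05) at 24 h, and Dnmt3a, a DNA methyltransferase, the largest fall at 12 h, from 990.4 to 508 (log2 difference -0.96, SE 0.15, adjusted p = 0.00628). With the Chd4 hairpin, Dnmt3l, a cofactor of DNA methyltransferases, rose from 459.8 to 5845 (log2 difference 3.67, SE 0.053, adjusted p = 1.07e-06), and Uhrf1, which recruits the maintenance methyltransferase, fell from 11640.5 to 4147 (log2 difference -1.49, SE 0.04, adjusted p = 1.87e-06). In serum Dnmt3a rose from 3774 to 4940.3 (log2 difference 0.39, SE 0.028, adjusted p = 0.000214) and the demethylating enzyme gene Tet2 fell from 3578 to 2313 (log2 difference -0.63, SE 0.047, adjusted p = 0.000242). With RAD21 loss for 24 h 2 rose and 6 fell, against 13.7% of all genes called, among them Tet2 from 2133 to 1411 (log2 difference -0.60, SE 0.049, adjusted p = 0.000951). The median of this list was between -0.13 and 0.12 in all 19 comparisons.

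Of 62 other genes at the same loci, 45 were tested after CTCF loss in serum-free cells, where 4 rose and 3 fell at 12 h and 10 rose and 5 fell at 24 h, against 17.8% and 22.5% of all genes called. Dio3, a thyroid hormone deiodinase gene at the far end of the Dlk1-Meg3 domain, rose from 53.3 to 147 (log2 difference 1.45, SE 0.20, adjusted p = 0.00411) at 12 h, and Peg12, a paternally expressed gene of the Snrpn-Ndn domain, fell from 73.8 to 26.9 (log2 difference -1.46, SE 0.32, adjusted p = 0.021). With IAA under the control construct, Dio3 rose from 36.6 to 191 (log2 difference 2.38, SE 0.29, adjusted p = 0.000193) and Peg12 fell from 78.4 to 23.4 (log2 difference -1.71, SE 0.22, adjusted p = 0.000281), and in serum Dio3 rose from 11.9 to 39.7 (log2 difference 1.65, SE 0.34, adjusted p = 0.0171). With the Chd4 hairpin 20 of 49 rose and 16 fell, against 67.4% of all genes called. Begain, beside Dlk1, rose from 2.83 to 174 (log2 difference 5.51, SE 0.29, adjusted p = 1.15e-05) and the flippase gene Atp10a, of the Snrpn-Ndn region, fell from 212 to 21.6 (log2 difference -3.23, SE 0.21, adjusted p = 2.49e-05).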

How the data were processed

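Poly(A) RNA of 32 E14 libraries was sequenced. The deposited tables hold normalised counts, a signal with no value below 0, and the submitters' processing notes name Trim Galore, Bowtie2, STAR, RSEM and DESeq2 with the build mm10, with no role or version. How the authors normalised the values is not given in the sources used here. The values are not whole reads, so no count test was run. Library totals of 15364584 to 19642332 are sums of normalised values and do not give the sequencing depth. Each of 5 tables was normalised by itself, so tests were made within a table.

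Values were taken as log2(value + 1) and fitted in R 4.3.3 by limma 3.58.1 with a contrast per comparison and empirical Bayes variances that follow the mean, all groups of a table together, for the 13699 to 15499 genes with a mean of at least 10. A call is a Benjamini-Hochberg adjusted p under 0.05. A log2 difference on this scale understates the change of low genes. With 2 libraries a group, an exact two-sided permutation test cannot go below p = 0.333. The code was tested on simulated data. Alternatives were a pseudocount of 5, no filter, quantile normalisation, a replicate block, a fit of only the groups compared, groups by treatment label, and leaving out each library. Groups by treatment label were run only for wild-type CTCF against the control without IAA and mutated CTCF against the control with IAA. By that label no library of wild-type CTCF with IAA or of mutated CTCF without IAA remains. Comparisons that use either group, the interactions included, could not be formed. Replicate numbers did not pair the libraries (correlation of deviations -0.063 to 0.10). Positions are from GENCODE M21, matched by gene ID for 31 of 31 listed members, 27 with the same ID version. The table of CTCF loss breaks off in its last line, after the IDs of all members, and 1 incomplete line was left out.

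Members and lists were chosen with earlier results of these data known. A member is given by library where it was called with a difference of at least 1 and a mean of at least 10, or had the largest rise or fall of a comparison, beside members compared with these. Genes of the lists are named as the largest called rise or fall. The result of 1 further marker list is not reported here.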

Additional observations from a re-analysis of the deposited data

Results flagged for a closer look

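The response to 12 h of IAA differed between constructs for 2 members by a test of the difference itself: Peg3 rose less with wild-type CTCF than with the control (-0.33) and Meg3 fell with mutated CTCF relative to the control (-0.61). The first was lost without any 1 of 8 libraries. Both use libraries whose title and treatment label disagree, and by treatment label neither test can be formed.

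After 12 h of CTCF loss, 9 of the 25 members tested in both tables had differences of opposite sign in serum-free and in serum cells, with 12 h libraries that did not overlap the 0 h libraries in either table. The same held for 15.5% of the 12959 genes tested in both. The serum-free value is given first. They were Kcnq1ot1 (0.094 and -0.87), Slc22a18 (0.75 and -0.63), Meg3 (0.36 and -0.24), Rian (0.079 and -0.28), Peg10 (-1.57 and 0.11), Ndn (-1.09 and 0.45), Gnas (-0.16 and 0.21), Slc38a4 (-1.02 and 0.24) and Zdbf2 (0.14 and -0.063). Of these, Meg3, Peg10 and Slc38a4 were called in both tables, and Slc22a18 and Zdbf2 in neither. Only Slc38a4 kept both calls without each library in turn. The call of Peg10 was lost without any 1 serum-free library and without 3 of 4 in serum. That of Meg3 was lost without 3 of 4 serum-free libraries and 2 of 4 in serum. The difference between the tables was not tested.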

How the results depend on the processing

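Under all alternatives together, 2 called members changed sign and no longer passed: Slc38a4 with the Chd4 hairpin under quantile normalisation (0.056) and Peg3 with wild-type CTCF against the control without IAA under groups from the treatment label (0.093). Of 146 called pairs of member and comparison, a pseudocount of 5 ended 1 call, no filter 2, quantile normalisation 7 besides the sign change of Slc38a4, and the replicate block 9; fitting only the groups compared ended 26 of 106, the treatment label 6 of 12 besides the sign change of Peg3, and leaving out 1 library ended the call at least once for 76. The replicate block gave 0 called members between 12 and 24 h of CTCF loss (1 without the block) and moved no other count by over 1.5 times. Fitted on its own groups alone, that comparison also gave 0, wild-type CTCF against the control without IAA 0 (5 with all groups), mutated CTCF against the control without IAA 5 (8), and mutated against wild-type CTCF with IAA 0 (2). Treatment-label groups gave 1 for wild-type CTCF against the control without IAA (5 by title). They gave 5 for mutated CTCF against the control with IAA (7 by title).

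Without 1 library, called members numbered 5 to 6 (CTCF loss, 12 h), 4 to 8 (24 h) and 0 (24 against 12 h); 1 to 4, 6 to 8 and 4 to 6 for RAD21 loss; 4 to 11 in serum; 21 to 24 with the Chd4 hairpin. For IAA they numbered 6 to 8 with the control, 4 to 7 with wild-type and 5 with mutated CTCF. Against the control they numbered 2 to 3 and 4 to 5 without IAA and 5 to 6 and 4 to 5 with IAA, for wild-type and mutated CTCF. Between the constructs they numbered 3 to 6 without and 0 to 1 with IAA, and 0 and 1 for the interactions. Depth limits members where their values are low, such as Dlk1 and Peg13 with the control hairpin and Magel2 after 12 h of IAA in serum.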
